A study of Homo sapiens with 6 samples.

Results

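The genes described here build, cap, cross-link and store actin filaments. They are 57 genes of 61852 in a table of RNA-seq counts, chosen as a list by symbol: 2 actins, 9 ARP2/3 complex subunits, 12 WASP and WAVE genes, 7 formins, 5 cortactins and coronins, 6 monomer-binding genes, 6 capping and severing genes, 3 Ena/VASP genes, 5 cross-linkers and bundlers and 2 ERM linkers. All 57 were found. The cells were MEG-01, an established human megakaryoblastic leukaemia line, with a lentiviral hairpin against MELK (sh2-MELK, 3 biological replicates) or with the control vector pLKO.1 (3 biological replicates). MELK is a serine/threonine kinase of proliferating cells, and the series' title places the comparison in platelet formation and cofilin signalling. A single hairpin and a single line were used, and all 6 libraries carry the batch label F5.

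Actin cycles between free monomers and filaments. Thymosins and profilin hold the monomer pool, the ARP2/3 complex starts branches when WASP or WAVE proteins switch it on, and formins and Ena/VASP proteins lengthen unbranched filaments. Capping proteins stop growth, severing proteins break filaments, and cross-linkers bind them into bundles and networks. Megakaryocytes use this machinery for membrane remodelling and for the shedding of proplatelets.

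In the knockdown all 7 tested ARP2/3 subunits were higher, the 3 tested formins and the 2 tested Ena/VASP genes were lower, and the monomer-binding genes split, with TMSB4X 4.68-fold and CAP1 2.71-fold higher and TWF2 lower. HCLS1 and FSCN1 fell while LCP1 and MSN rose. The 2 actin genes rose by 1.11-fold and 1.19-fold. Levels are CPM, read counts brought to a common library size with the trimmed mean of M-values (TMM), and a gene is called at a Benjamini-Hochberg adjusted p below 0.05 in edgeR's quasi-likelihood test. That test called 38.2% of all genes tested higher and 38.8% lower. With the trend of GC content and transcript length removed, 5 of the 7 ARP2/3 subunits were called higher and 1 lower. In that fit 2 of the 3 formins and both Ena/VASP genes were called lower.

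The library totals ran between 18945176 and 21711313 counts. MELK itself had 16, 124 and 26 counts in the knockdown libraries, against 219, 206 and 238 in the control libraries, and the groups did not overlap. On top of the reads, each deposited value appears to hold an added 0, 1, 2, 10 or 100, and 57.9% of genes show nothing but those 5 numbers. MELK was therefore too low for the main test, which took the 5038 genes averaging 500 counts or more. A model of reads with that addition put MELK at 20.6 reads in the knockdown and 214 in the control, a log2 fold change of -3.38 (95% interval -3.86 to -2.96). Of 11 megakaryocyte markers 4 had a mean of at least 500 counts (ITGA2B, ITGB3, GATA1 and FLI1), and GP9, PF4 and VWF were under a mean of 50. The megakaryocyte markers summed to 1316 to 1344 CPM in the knockdown and 2296 to 2402 CPM in the control. The erythroid list summed to 235 to 239 CPM in the knockdown and 482 to 533 CPM in the control, with 6 of 9 markers at that mean. The granulocyte and monocyte list (3 of 8 markers at that mean) summed to 118 to 126 CPM in the knockdown and 222 to 231 CPM in the control, with CD14, ELANE and CSF1R under a mean of 50. The fibroblast and endothelial list (1 of 6, PECAM1) summed to 232 to 238 CPM in the knockdown and 162 to 192 CPM in the control, with COL1A2, PDGFRB and CDH5 under a mean of 50. The fibroblast and endothelial sum, in which only PECAM1 reached a mean of 500 counts, was thus higher in the knockdown. It does not show that such cells were present. The other 3 sums given here were lower. The part of these shifts in the results below was not tested. In bulk RNA, fewer cells of a type and less RNA per cell cannot be told apart.

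Of the 57 genes 43 reached a mean of 500 counts and were tested, and 14 did not. The test called 39 of the 43 (90.7%), 19 higher and 20 lower in the knockdown, beside 76.9% of all genes tested (38.2% higher and 38.8% lower). At 1.5-fold or more, 16 were called (37.2%), 8 higher and 8 lower, beside 28.5% of all genes (13.9% higher and 14.7% lower). In 39 of 43 genes (90.7%) the 3 knockdown libraries did not overlap the 3 control libraries, which was the case in 79.2% of all genes tested. The median log2 fold change of the 43 was -0.07, beside -0.00 over all genes, and the median absolute change was 0.50 beside 0.36. The 4 genes that were not called were CYFIP1, NCKAP1L, CAPZB and EZR. The members together made up 2.65% to 2.70% of the counts in the knockdown libraries and 2.19% to 2.20% in the control libraries. ABI2 was the 1 tested gene under 500 counts on average within a group, the knockdown.

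**Figure D1:**
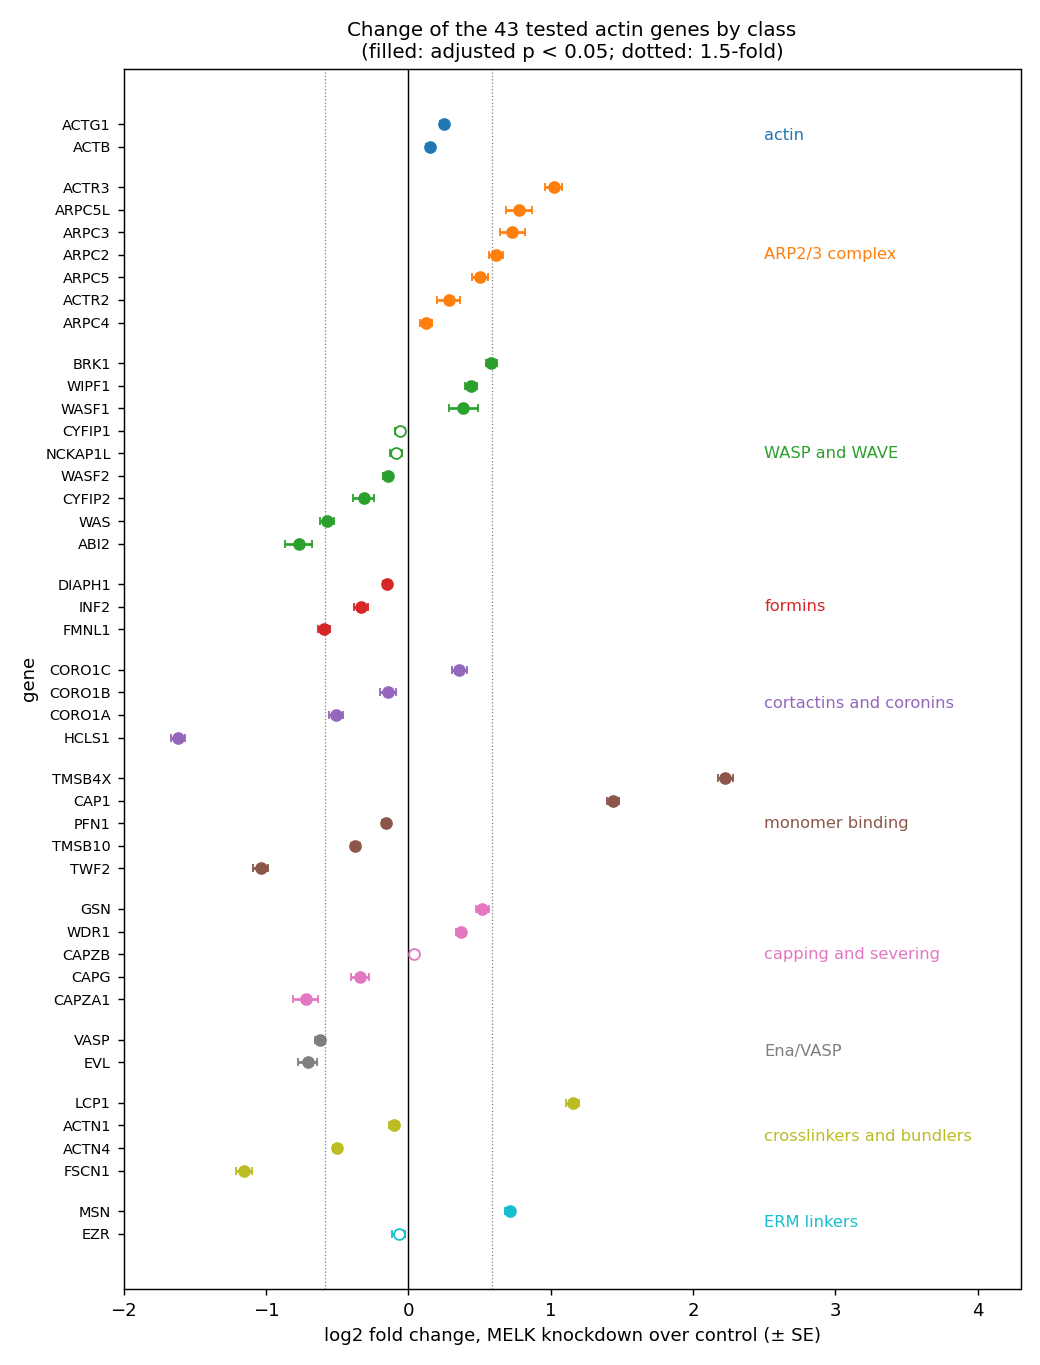
Log2 fold change (± SE, n = 3 libraries per group) of the 43 tested genes in the knockdown over the control, arranged by class, with filled points called and open points not called. The 7 ARP2/3 points lie right of 0 and the formin and Ena/VASP points lie left of 0, while the monomer-binding genes run between -1.04 and 2.23.

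The promoter windows of the 2 thymosin genes and of ACTG1 are printed because the thymosins moved in opposite directions and ACTG1 holds a motif of actin genes, the CArG box, which serum response factor binds. Each window runs 250 bases before to 50 bases after the annotated start, from RefSeq on GRCh38.p14, and has a single start in the table. The TMSB4X window is chrX:12974860-12975159 on the plus strand, the TMSB10 window is chr2:84905406-84905705 on the plus strand and the ACTG1 window is chr17:81512750-81513049 on the minus strand. Capitals mark motif matches.
TMSB4X: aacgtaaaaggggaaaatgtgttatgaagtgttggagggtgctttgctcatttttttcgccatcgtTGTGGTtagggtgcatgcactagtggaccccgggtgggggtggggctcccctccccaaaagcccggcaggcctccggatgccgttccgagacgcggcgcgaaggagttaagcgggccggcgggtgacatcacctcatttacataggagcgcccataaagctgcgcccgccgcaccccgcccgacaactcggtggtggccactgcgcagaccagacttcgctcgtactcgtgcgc
TMSB10: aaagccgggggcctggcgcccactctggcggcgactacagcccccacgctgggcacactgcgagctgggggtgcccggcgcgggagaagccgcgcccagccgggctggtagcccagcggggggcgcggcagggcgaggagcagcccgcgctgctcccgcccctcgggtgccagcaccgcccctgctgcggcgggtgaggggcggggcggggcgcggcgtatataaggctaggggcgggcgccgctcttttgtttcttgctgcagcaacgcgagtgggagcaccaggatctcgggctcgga
ACTG1: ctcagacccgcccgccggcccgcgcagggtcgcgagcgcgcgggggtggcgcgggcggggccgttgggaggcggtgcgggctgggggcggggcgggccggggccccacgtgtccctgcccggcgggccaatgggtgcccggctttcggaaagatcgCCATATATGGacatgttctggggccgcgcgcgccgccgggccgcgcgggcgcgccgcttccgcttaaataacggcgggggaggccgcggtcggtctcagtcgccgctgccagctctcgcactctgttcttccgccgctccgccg
The ACTG1 capitals are a CArG box, whose first base lies 94 bases before the start, and the TMSB4X capitals are ACCACA read on the other strand. TMSB10 held no match. CArG boxes, which can overlap the letters TATAAA, occurred in 1.29% of 35116 promoter windows, and in 2 of the 86 windows of the 51 members that have any (ACTG1 and 1 of 4 starts of ACTN1). ACTB, ARPC1B, CTTN, FSCN1, NCKAP1L and WASF2 had no window, so they were not searched for any of the motifs. TATAAA, on either strand, occurred in 11.5% of all windows and in 4 of the 86 (ACTN1, EVL, GSN and LCP1). AGATAA, which GATA factors bind, occurred in 10.3% of all windows and in 3 of the 86 (CORO1C, DAAM1 and WIPF1). ACCACA, which RUNX factors bind, occurred in 13.1% of all windows and in 12 of the 86 (14%), which belong to 11 members, TMSB4X, WAS, LCP1 and GSN among them. A match describes the letters in the window only.

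The actins changed little. ACTB (beta-actin) had 6097, 6296 and 6267 CPM in the knockdown libraries, against 5793, 5544 and 5442 CPM in the control libraries. ACTB averaged 6220.0 ± 108 CPM in the knockdown and 5593 ± 181 CPM in the control (SD, n = 3 each), and its groups did not overlap. The log2 fold change of ACTB was 0.15 ± 0.03 (SE, adjusted p = 0.000121). ACTG1 (gamma-actin) had 3882, 3968 and 3859.9 CPM in the knockdown libraries, against 3290.1, 3241 and 3322 CPM in the control libraries, a log2 fold change of 0.25 ± 0.03 (SE, adjusted p = 2.45e-07). The knockdown libraries lay above every control library for both genes, at 1.11-fold for ACTB and 1.19-fold for ACTG1. The sum over both actins was 10124 ± 143 CPM in the knockdown and 8877 ± 179 CPM in the control (SD, n = 3 each). Reads of the actins and of other members, TMSB4X among them, can be shared with pseudogenes. Pseudogenes named after members had a mean of at most 103.2 counts (TMSB4XP8), and the highest named after an actin had 52.0 (ACTG1P11). The counting mode is not given, so these counts do not show how many reads were shared or dropped.

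Among the monomer-binding genes, the large changes pointed both ways. TMSB4X (thymosin beta-4, the main buffer of free actin monomers, GRCh38 chromosome X, 12975108 to 12977227, plus strand) had 2313, 2556 and 2552 CPM in the knockdown libraries, against 491, 539 and 554 CPM in the control libraries. TMSB4X averaged 2474 ± 139 CPM in the knockdown and 528 ± 33.0 CPM in the control (SD, n = 3 each). All 3 knockdown libraries lay above all 3 control libraries, and the log2 fold change was 2.23 ± 0.05 (SE, adjusted p = 1.52e-12). Among the 246 genes averaging 10000 counts or more, TMSB4X had the largest increase. CAP1 (cyclase-associated protein, which returns monomers to the growing pool, GRCh38 chromosome 1, 40040233 to 40072649, plus strand) had 1020.2, 1042 and 1047 CPM in the knockdown libraries, against 352, 398 and 399 CPM in the control libraries. The log2 fold change of CAP1 was 1.44 ± 0.04 (SE, adjusted p = 9.32e-13), and no library of either group crossed into the other. PPT1, on the opposite strand, covers 31.2% of the exon bases of CAP1 and changed by 0.13 ± 0.05 (SE).

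TMSB10 (thymosin beta-10, a close relative of TMSB4X) went the other way, with 722, 735 and 721 CPM in the knockdown libraries, against 928, 912 and 977 CPM in the control libraries. Its log2 fold change was -0.37 ± 0.03 (SE, adjusted p = 3.37e-08), with every knockdown library below every control library. TWF2 (a twinfilin, which binds monomers and caps filaments) had 47.2, 47.8 and 45.7 CPM in the knockdown libraries, against 98.4, 93.5 and 97.2 CPM in the control libraries, and a log2 fold change of -1.04 ± 0.06 (SE, adjusted p = 1.48e-10). PFN1 (profilin, which carries monomers to growing ends) was lower by a small amount, with 1297, 1287 and 1301 CPM in the knockdown libraries, against 1475, 1411 and 1444 CPM in the control libraries and a log2 fold change of -0.16 ± 0.03 (SE, adjusted p = 9.75e-05). The class summed to 5578 ± 154 CPM in the knockdown and 3392 ± 68.9 CPM in the control (SD, n = 3 each), and the 2 thymosins to 3199 ± 142 CPM in the knockdown and 1467 ± 57.6 CPM in the control. Without TMSB4X the sum over all 57 members was 1.09-fold higher in the knockdown, against 1.17-fold with it. Per kilobase of transcript, TMSB4X reached 3544 CPM in the knockdown, beside 3433 CPM for ACTB, and 757 CPM in the control, beside 3086 CPM for ACTB.

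**Figure D2:**
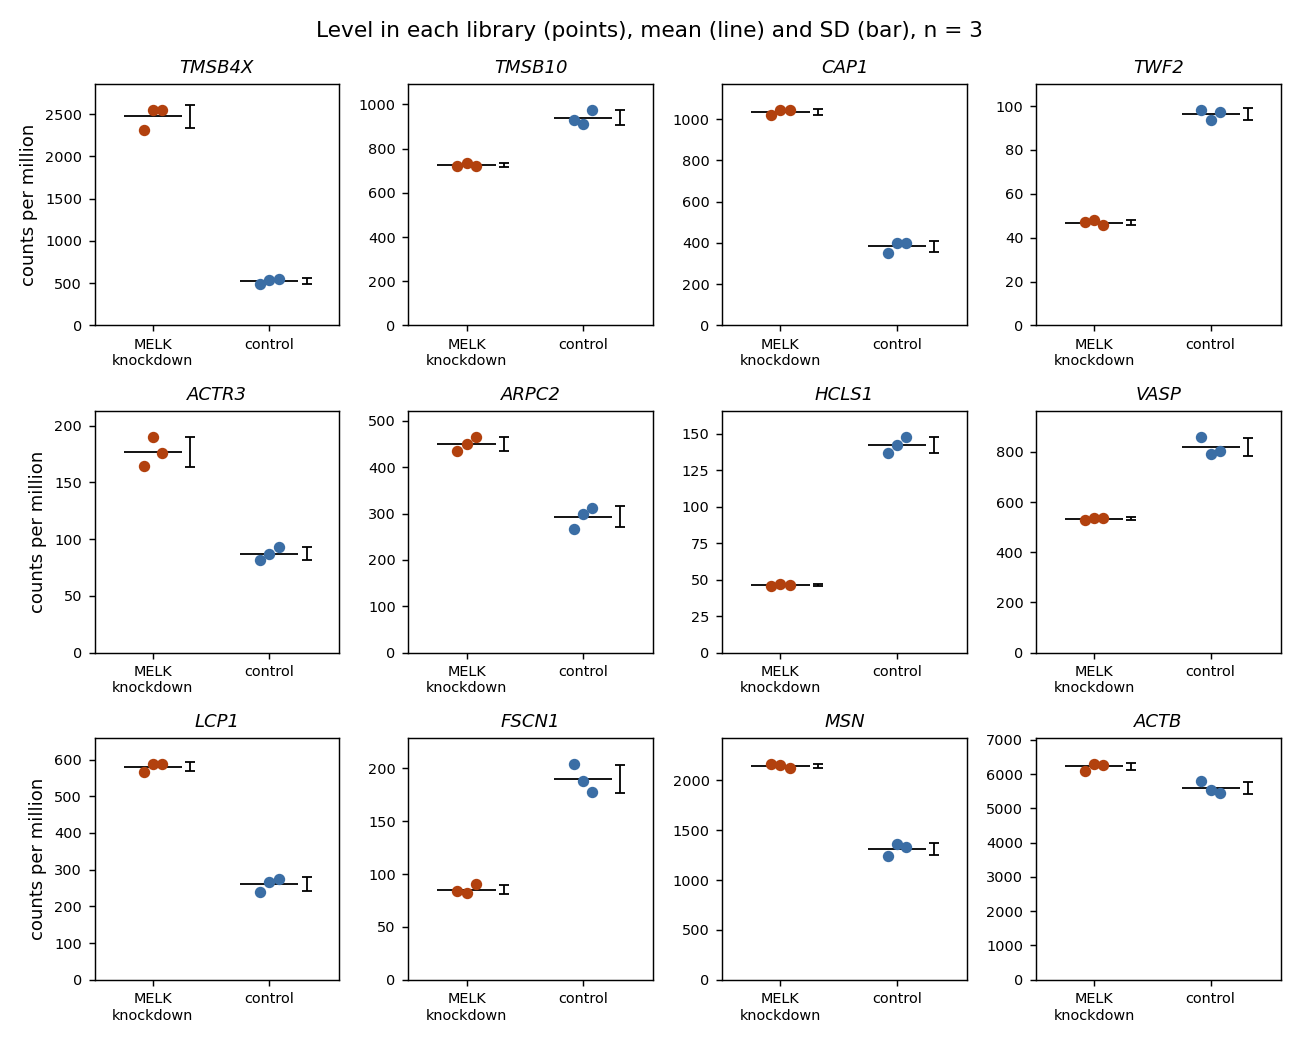
CPM of 12 of the genes in each library (points) with the group mean (line) and SD (bar, n = 3), knockdown left of control, each panel with its own vertical axis starting at 0. TMSB4X lies at 2313 to 2556 CPM in the knockdown and 491 to 554 CPM in the control, and the groups separate in all 12 panels.

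All 7 tested ARP2/3 subunits were higher in the knockdown, 4 of them at 1.5-fold or more, with a median log2 fold change of 0.62. The complex starts a new filament as a branch on an existing one. ACTR3 (the ARP3 subunit, GRCh38 chromosome 2, 113889960 to 113962596, plus strand) had 165, 190.3 and 176 CPM in the knockdown libraries, against 81.6, 86.8 and 93.2 CPM in the control libraries. Its log2 fold change was 1.02 ± 0.06 (SE, adjusted p = 7.79e-10), and the groups did not overlap. ARPC5L (a variant of subunit 5) had 58.4, 60.2 and 68.2 CPM in the knockdown libraries, against 35.6, 41.2 and 32.2 CPM in the control libraries, and a log2 fold change of 0.78 ± 0.09 (SE, adjusted p = 1.54e-06). ARPC3 had 108, 121 and 126 CPM in the knockdown libraries, against 60.9, 79.3 and 74.2 CPM in the control libraries, and a log2 fold change of 0.73 ± 0.09 (SE, adjusted p = 8.32e-06). Neither of these genes had overlapping groups. ARPC2, a core subunit, had 434, 449 and 466 CPM in the knockdown libraries, against 267, 299 and 313 CPM in the control libraries, and a log2 fold change of 0.62 ± 0.05 (SE, adjusted p = 1.68e-07). The knockdown libraries lay above the control libraries here too. ARPC5, ACTR2 and ARPC4 changed by 0.12 to 0.50 on the log2 scale, and their groups did not overlap either. ARPC4 lost its call without knockdown replicate 1 (adjusted p = 0.0534), without knockdown replicate 2 (0.0827) and without control replicate 2 (0.0846). With filterByExpr in place of the minimum mean, ARPC4 (adjusted p = 0.189) and ACTR2 (adjusted p = 0.0529) were not called, which left 5 of the 7. ARPC4 was not called without a filter either (adjusted p = 0.24). TADA3 on the opposite strand covers 13.3% of the exon bases of ARPC4. ARPC4-TTLL3 on the same strand covers 15% and had a mean of 67.0 counts.

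The summed level of the 9 subunits was 1120.0 ± 31.6 CPM in the knockdown and 744 ± 34.4 CPM in the control (SD, n = 3 each). Per kilobase the subunits were unequal, with ARPC2 at 289 CPM in the knockdown and 189 CPM in the control, ACTR3 at 116 CPM in the knockdown and 57.0 CPM in the control, ACTR2 at 21.2 CPM in the knockdown and 17.4 CPM in the control, and ARPC1A at 8.62 CPM in the knockdown and 3.60 CPM in the control. Across all 5038 genes, log2 fold change ran lower at higher GC content (Spearman correlation -0.41, across genes, which are not independent). With the trend of GC content and transcript length removed, 5 ARP2/3 genes were higher, 2 of them at 1.5-fold or more, ACTR2 was lower at -0.22 and ARPC5 was not called (0.06, adjusted p = 0.263), and the class median was 0.39. ACTR3 remained at 0.67 in that fit.

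WASP and WAVE genes, which switch on the ARP2/3 complex, split: 3 of 9 tested were higher, 4 lower and 2 not called, and their summed level was 0.985 of the control. With the trend of GC content and transcript length removed, 2 were higher, 6 lower and 1 not called. Here and below, GC content removed is short for this fit. It removes both trends together, so the part of each was not separated. ABI2 (an Abl-interactor subunit of the WAVE complex) had 23.6, 23.2 and 24.2 CPM in the knockdown libraries, against 37.9, 39.6 and 43.6 CPM in the control libraries, and a log2 fold change of -0.77 ± 0.09 (SE, adjusted p = 1.98e-06). RAPH1 overlaps 38% of ABI2 exon bases on the opposite strand. ABI2 was the furthest from 0 of the tested WASP and WAVE genes. BRK1, the smallest WAVE subunit, had 207, 208 and 209.5 CPM in the knockdown libraries, against 134, 142 and 141 CPM in the control libraries, and a log2 fold change of 0.58 ± 0.04 (SE, adjusted p = 1.58e-09). WAS (the WASP protein of blood cells) had 75.6, 72.7 and 73.8 CPM in the knockdown libraries, against 115, 108 and 107 CPM in the control libraries, and a log2 fold change of -0.57 ± 0.05 (SE, adjusted p = 4.32e-08). WAS was lower in every knockdown library than in any control library. WIPF1 (which binds and stabilises WASP) had 152, 155 and 153 CPM in the knockdown libraries, against 111, 113 and 116 CPM in the control libraries, and a log2 fold change of 0.44 ± 0.04 (SE, adjusted p = 9.84e-08). BRK1 and WIPF1 thus rose and ABI2 and WAS fell, with no overlap of groups in any of the 4. WASF1, WASF2 and CYFIP2 were called with changes of 0.39, -0.15 and -0.31. The model of reads with an added number put WASF1 at 0.29 (95% interval 0.15 to 0.45). WASF1 was not called with GC content removed (0.12, adjusted p = 0.303). CYFIP1 (-0.06, adjusted p = 0.162) and NCKAP1L (-0.09, adjusted p = 0.0744) were not called. Without control replicate 1 CYFIP1 was called lower at -0.08 (adjusted p = 0.0423) and NCKAP1L at -0.12 (adjusted p = 0.0139). With GC content removed CYFIP1 was called lower at -0.24 (adjusted p = 2.49e-06) and NCKAP1L at -0.23 (adjusted p = 9.43e-06), and NCKAP1L was also called at a minimum mean of 200 counts (adjusted p = 0.0495).

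The 3 tested formins, which lengthen unbranched filaments from their growing end, were all lower. FMNL1 (a formin abundant in blood cells, GRCh38 chromosome 17, 45221444 to 45247320, plus strand) had 114, 112 and 117 CPM in the knockdown libraries, against 171, 171 and 175 CPM in the control libraries, and a log2 fold change of -0.59 ± 0.04 (SE, adjusted p = 2.51e-09). INF2, which can also sever filaments, had 118, 122 and 122 CPM in the knockdown libraries, against 158, 139.9 and 156 CPM in the control libraries, and a log2 fold change of -0.33 ± 0.05 (SE, adjusted p = 1.87e-05). DIAPH1 (a formin that small GTPases switch on) had 1199, 1172 and 1144 CPM in the knockdown libraries, against 1258, 1319 and 1321 CPM in the control libraries, and a log2 fold change of -0.15 ± 0.03 (SE, adjusted p = 0.000354). The groups did not overlap in any of the 3, although DIAPH1 differed by little. INF2 was not called with GC content removed (-0.03, adjusted p = 0.555), and FMNL1 stood at -0.32, under 1.5-fold.

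The cortactins and coronins, which stabilise or take apart branches, gave 1 higher and 3 lower of 4 tested, with the largest decrease of the 43 tested genes among them. HCLS1 (the cortactin of blood cells, GRCh38 chromosome 3, 121631399 to 121660927, minus strand) had 45.6, 47.2 and 46.5 CPM in the knockdown libraries, against 137, 142 and 148 CPM in the control libraries. HCLS1 averaged 46.4 ± 0.77 CPM in the knockdown and 142 ± 5.69 CPM in the control (SD, n = 3 each). Its groups were far apart, and the log2 fold change was -1.62 ± 0.05 (SE, adjusted p = 3.72e-13). CORO1A (coronin of blood cells) had 133, 132 and 124 CPM in the knockdown libraries, against 181, 175 and 196 CPM in the control libraries, and a log2 fold change of -0.51 ± 0.05 (SE, adjusted p = 1.02e-07). CORO1C had 158, 165 and 169 CPM in the knockdown libraries, against 118, 137 and 129 CPM in the control libraries, and a log2 fold change of 0.36 ± 0.05 (SE, adjusted p = 1.7e-05), so the coronins did not move together. CORO1B had 127, 124 and 115 CPM in the knockdown libraries, against 141, 125 and 138 CPM in the control libraries, and a log2 fold change of -0.14 ± 0.05 (SE, adjusted p = 0.0247). The CORO1B libraries overlapped, and its call was lost without knockdown replicate 3, control replicate 1 or control replicate 3, with library-size scaling (adjusted p = 0.138) and with filterByExpr (adjusted p = 0.128). With GC content removed CORO1B was higher (0.16, adjusted p = 0.00682). In that fit 2 of the 4 tested genes were higher and 2 lower, with a class median of -0.07. Over the alternatives CORO1C ran down to 0.09 and CORO1A up to -0.23, each still called. PTPRCAP on the same strand covers 24.3% of the exon bases of CORO1B.

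Capping and severing genes were split 2 higher, 2 lower and 1 not called. CAPZA1 (an alpha subunit of capping protein) had 31.7, 27.4 and 28.2 CPM in the knockdown libraries, against 44.6, 51.3 and 47.8 CPM in the control libraries, and a log2 fold change of -0.72 ± 0.09 (SE, adjusted p = 2.41e-06). GSN (gelsolin, which severs and caps filaments in calcium) had 136, 136 and 128 CPM in the knockdown libraries, against 95.3, 91.1 and 92.8 CPM in the control libraries, and a log2 fold change of 0.52 ± 0.04 (SE, adjusted p = 4.62e-08). CAPZA1 fell and GSN rose, each without overlap. WDR1 (a partner of cofilin in disassembly) had 663, 666 and 651 CPM in the knockdown libraries, against 510.1, 514 and 511 CPM in the control libraries, and a log2 fold change of 0.37 ± 0.03 (SE, adjusted p = 1.21e-08). CAPG (a gelsolin relative that caps without severing) had 67.9, 72.8 and 65.3 CPM in the knockdown libraries, against 93.2, 84.1 and 83.8 CPM in the control libraries, and a log2 fold change of -0.34 ± 0.06 (SE, adjusted p = 0.000118). WDR1 rose and CAPG fell, also with separate groups. CAPZB, the beta subunit of capping protein, was not called (0.04, adjusted p = 0.223), although its libraries did not overlap. CAPG kept its call in every alternative but ran up to -0.12. With GC content removed GSN stood at 0.71 and CAPZA1 at -1.13. ST7L, with a mean of 277.5 counts, covers 15.1% of the exon bases of CAPZA1 on the opposite strand.

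Both tested Ena/VASP genes, which hold growing ends open, were lower at 1.5-fold or more. VASP (GRCh38 chromosome 19, 45506579 to 45526983, plus strand) had 527, 536 and 537 CPM in the knockdown libraries, against 860.3, 792 and 803 CPM in the control libraries, and a log2 fold change of -0.62 ± 0.03 (SE, adjusted p = 2.06e-10). EVL had 58.8, 53.5 and 49.1 CPM in the knockdown libraries, against 88.8, 87.3 and 87.4 CPM in the control libraries, and a log2 fold change of -0.71 ± 0.07 (SE, adjusted p = 9.31e-08). Every knockdown library lay below every control library for each. The sum of the 3 Ena/VASP genes was 592.5 ± 1.56 CPM in the knockdown and 911 ± 40.1 CPM in the control (SD, n = 3 each). With GC content removed, VASP stood at -0.43, under 1.5-fold.

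The cross-linkers and bundlers gave 1 higher and 3 lower. LCP1 (plastin of blood cells, GRCh38 chromosome 13, 46125920 to 46211871, minus strand) had 566, 588 and 587 CPM in the knockdown libraries, against 239, 267 and 275 CPM in the control libraries. The log2 fold change of LCP1 was 1.16 ± 0.04 (SE, adjusted p = 1.32e-11), with no overlap. FSCN1 (fascin, which packs filaments into filopodia, GRCh38 chromosome 7, 5592823 to 5606655, plus strand) had 83.7, 81.8 and 90.6 CPM in the knockdown libraries, against 204, 188 and 177 CPM in the control libraries. The log2 fold change of FSCN1 was -1.15 ± 0.06 (SE, adjusted p = 7.07e-11), also with no overlap. ACTN4 (an alpha-actinin) had 1015, 992 and 989 CPM in the knockdown libraries, against 1386, 1414 and 1444 CPM in the control libraries, and a log2 fold change of -0.50 ± 0.03 (SE, adjusted p = 2.67e-10). ACTN1, its relative and the cross-linker of platelets, had 279, 294 and 275 CPM in the knockdown libraries, against 299, 298 and 312 CPM in the control libraries, and a log2 fold change of -0.10 ± 0.04 (SE, adjusted p = 0.0181). The ACTN1 call was lost without knockdown replicate 1, knockdown replicate 3 or control replicate 3, with library-size scaling (adjusted p = 0.235), with filterByExpr (adjusted p = 0.0978) and with no filter (adjusted p = 0.0513). With GC content removed its change was 0.04 (adjusted p = 0.289). LCP1 and FSCN1 kept their directions with GC content removed, at 0.86 and -0.84.

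Of the ERM linkers, which tie filaments to the membrane, MSN (moesin) rose and EZR (ezrin) was not called. MSN (GRCh38 chromosome X, 65588377 to 65741931, plus strand) had 2166, 2152 and 2122 CPM in the knockdown libraries, against 1244, 1359 and 1329.5 CPM in the control libraries, a log2 fold change of 0.71 ± 0.03 (SE, adjusted p = 2.37e-11) and groups far apart. EZR had 218, 217 and 218 CPM in the knockdown libraries, against 209.8, 239.6 and 235 CPM in the control libraries, and its log2 fold change was -0.07 ± 0.04 (SE, adjusted p = 0.183). Without control replicate 1 EZR was called lower (-0.12, adjusted p = 0.0026), as it was with GC content removed (-0.18, adjusted p = 0.000222).

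**Figure D3:**
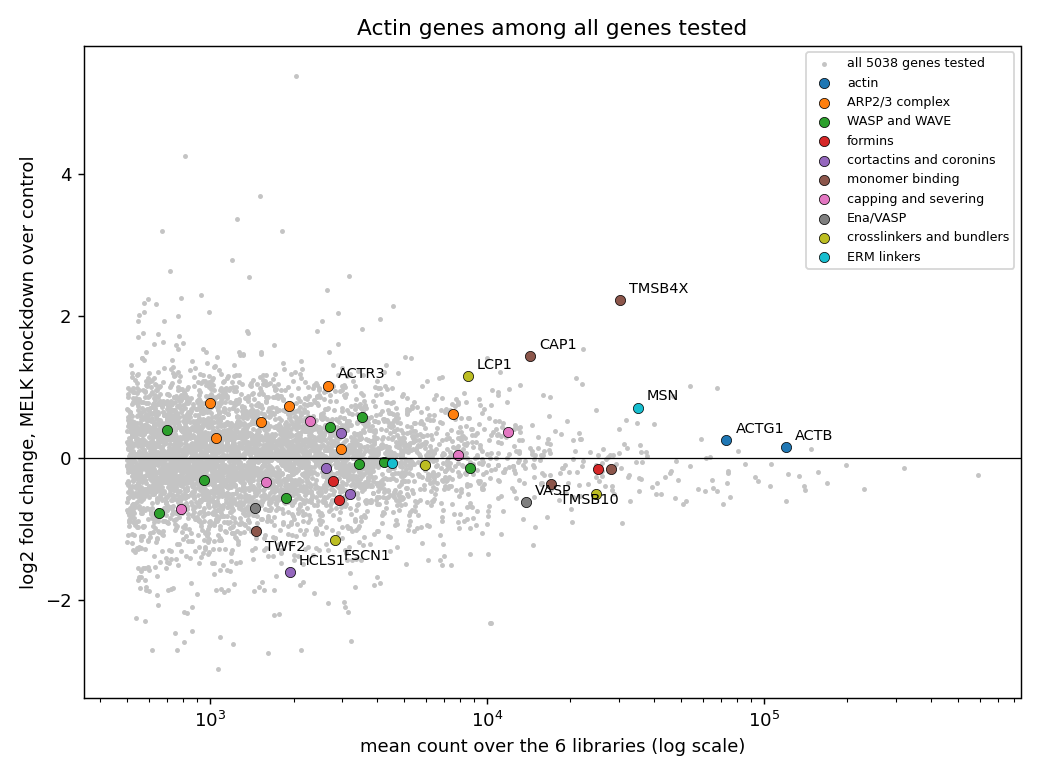
Log2 fold change of the knockdown over the control against the mean count over 6 libraries (log scale) for the 43 tested members (coloured by class) and all 5038 genes tested (grey). TMSB4X lies at 2.23 and HCLS1 at -1.62, while ACTB and ACTG1 lie at the high counts with changes of 0.15 and 0.25.

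The balance between related genes was compared within each library for the 12 of 24 listed pairs in which both genes had a mean of at least 500 counts. In 11 pairs the knockdown libraries did not overlap the control libraries. Single genes separated in 79.2% of cases and no share was computed for pairs of other genes, so the count is a description only. With 3 against 3 libraries the 2-sided exact permutation test cannot go below p = 0.1, and it gave p = 0.1 (adjusted 0.1091) for those 11. TMSB4X made up 70.8% ± 1.11 of the 2 thymosins per kilobase in the knockdown and 28.6% ± 1.15 in the control (SD, n = 3 each), so the order of the pair turned over, and the log2 ratio differed by 2.60. GSN made up 46.5% ± 0.921 of GSN and CAPG in the knockdown and 32.4% ± 0.902 in the control. CORO1A made up 54.7% ± 1.72 of CORO1A and CORO1C in the knockdown and 68.8% ± 2.26 in the control. The gelsolin pair thus moved toward GSN and the coronin pair toward CORO1C. The ratios were not corrected for the trend with GC content. Transcript GC content was 63.3% in CORO1A and 46.5% in CORO1C, against 59.7% in GSN and 60% in CAPG. ACTR2 made up 15.5% ± 2.21 of ACTR2 and ACTR3 in the knockdown and 23.4% ± 2.22 in the control. EZR made up 11.5% ± 0.110 of EZR and MSN in the knockdown and 18.3% ± 0.397 in the control. The share of ACTB in the 2 actins moved little, at 63.3% ± 0.397 in the knockdown and 64.8% ± 0.829 in the control. VASP and EVL overlapped (exact p = 0.4), with log2 ratios of 3.22 ± 0.14 in the knockdown and 3.13 ± 0.05 in the control. Lengths are medians over GENCODE 29 transcripts, so a share depends on them, while the difference in log2 ratio between groups does not.

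**Figure D4:**
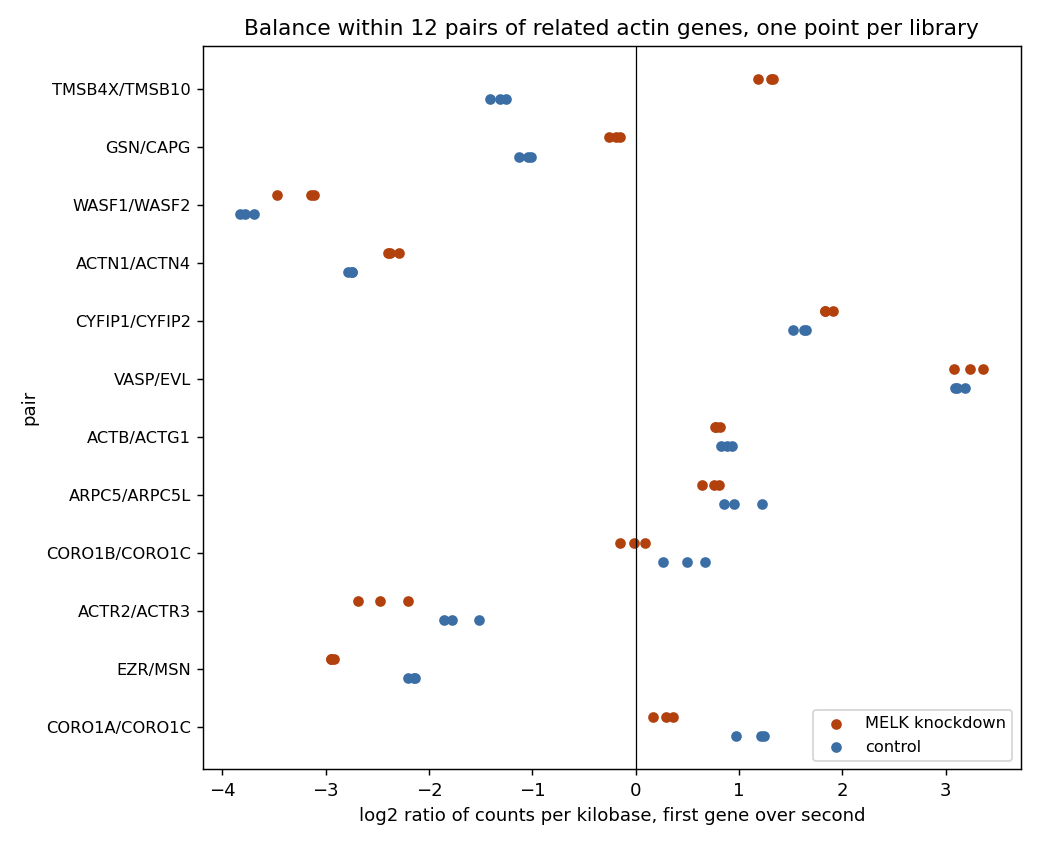
Log2 ratio of counts per kilobase, the first gene over the second, for 12 pairs, with 1 point per library, knockdown above control. The thymosin pair lies at 1.19 to 1.33 in the knockdown and -1.41 to -1.25 in the control, and VASP/EVL is the pair whose groups overlap.

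The 14 genes under a mean of 500 counts are given by their deposited counts and by the model of reads plus an added number, which called 39.2% of 26055 genes. It called 8 of the 14, 3 higher and 5 lower. ARPC1A, an ARP2/3 subunit, had counts of 262, 255 and 290 in the knockdown and 117, 96 and 139 in the control, and the model gave 271 reads in the knockdown and 112 in the control, a log2 fold change of 1.27 (95% interval 1.07 to 1.48). ABI1, the relative of ABI2, had counts of 197, 226 and 221 in the knockdown and 664, 496 and 587 in the control, and the model gave 215 reads in the knockdown and 537 in the control, a log2 fold change of -1.32 (95% interval -1.48 to -1.15). ABI1 and ABI2 were thus both lower in the knockdown. TWF1, the relative of TWF2, had counts of 11, 8 and 7 in the knockdown and 139, 22 and 21 in the control, and the model gave 7.73 reads in the knockdown and 26.2 in the control, a log2 fold change of -1.76 (95% interval -2.68 to -1.09). CAPZA2, the other alpha subunit of capping protein, had counts of 375, 411 and 398 in the knockdown and 278, 274 and 261 in the control, and the model gave 399 reads in the knockdown and 263 in the control, a log2 fold change of 0.60 (95% interval 0.45 to 0.76), opposite to CAPZA1. The cortactin CTTN had counts of 364, 349 and 336 in the knockdown and 478, 521 and 476 in the control, and the model gave 353 reads in the knockdown and 450 in the control, a log2 fold change of -0.35 (95% interval -0.55 to -0.20). The WAVE subunit NCKAP1 had counts of 78, 70 and 81 in the knockdown and 109, 106 and 98 in the control, with a modelled change of -0.41 (-0.70 to -0.13). Both were lower in the knockdown by the model. The formin DAAM1 had counts of 20, 34 and 15 in the knockdown and 69, 28 and 129 in the control, with a modelled change of -0.94 (-1.46 to -0.45), and the formin FMNL2 had counts of 192, 87 and 206 in the knockdown and 149, 91 and 170 in the control. The model called DAAM1 lower and FMNL2 higher, but the libraries of each gene overlapped between the groups. The interval of FMNL2 ran between -0.61 and 0.82.

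The other 6 were not called by the model, and single added numbers of 100 can make up most of a value at these counts. The subunit ARPC1B had counts of 35, 45 and 42 in the knockdown and 29, 21 and 54 in the control, with a modelled change of 0.35 (-0.12 to 0.79). The nucleation promoter WASL had counts of 152, 145 and 52 in the knockdown and 52, 53 and 34 in the control. The formins were as low, DIAPH2 with counts of 41, 68 and 157 in the knockdown and 71, 58 and 54 in the control, and DIAPH3 with counts of 81, 170 and 73 in the knockdown and 88, 55 and 69 in the control. The Ena/VASP gene ENAH had counts of 159, 69 and 88 in the knockdown and 163, 57 and 77 in the control, and the plastin PLS3 had counts of 98, 83 and 91 in the knockdown and 106, 43 and 79 in the control. ARPC1A and ARPC1B share 58.4% and 32.4% of their exon bases with the annotated gene AC004922.1 on the same strand, which had a mean of 2.5 counts.

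The wider list held 95 other genes of actin control: small GTPases, their regulators, effectors and adaptors, and further actin-binding genes such as formins, coronins and adducins. Of these, 45 were tested, 14 were called higher and 19 lower, and 12 were not called. The called share was 73.3%, beside 76.9% of all genes tested. The median log2 fold change was -0.02. PAK2, a kinase that Rac and Cdc42 switch on, had 18.2, 10.3 and 18.9 CPM in the knockdown libraries, against 72.5, 66.3 and 64.7 CPM in the control libraries, and a log2 fold change of -2.10 ± 0.17 (SE, adjusted p = 6.48e-07). The PAK2 counts were 364, 215 and 363 in the knockdown and 1530, 1316 and 1376 in the control. Within the knockdown PAK2 thus averaged less than the minimum mean of the main test. An added 100 would be a large part of such counts, so the size of the PAK2 change is uncertain. ADD2 (beta-adducin, of the red cell membrane skeleton) had 34.6, 36.6 and 31.1 CPM in the knockdown libraries, against 106, 121 and 118 CPM in the control libraries, and a log2 fold change of -1.75 ± 0.07 (SE, adjusted p = 6.56e-12). Both fell with no overlap between groups. DBNL (a drebrin-like actin adaptor) changed by -0.84 ± 0.06 (SE, adjusted p = 8.05e-09) and VAV1, an exchange factor of blood cells, by -0.78 ± 0.04 (SE, adjusted p = 1.46e-10). NCK2, an adaptor that recruits WASP, rose, with 68.9, 77.0 and 79.4 CPM in the knockdown libraries, against 29.1, 39.8 and 30.0 CPM in the control libraries and a log2 fold change of 1.19 ± 0.11 (SE, adjusted p = 4.34e-07). RHOH, an atypical small GTPase of blood cells, changed by 1.00 ± 0.07 (SE, adjusted p = 3.83e-09), the GTPase RAC1 by 0.76 ± 0.05 (SE, adjusted p = 3.64e-09) and the formin FMNL3 by 0.66 ± 0.07 (SE, adjusted p = 2e-07). FMNL3 rose while the 3 tested formins of the main list fell. FHOD1, another formin of the wider list, was lower (-0.17 ± 0.05, SE, adjusted p = 0.00364).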

How the data were processed

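The samples were 6 poly(A)-selected, paired-end RNA-seq libraries of MEG-01 cells, 3 with MELK knockdown (sh2-MELK) and 3 with control pLKO.1, grouped by sample title. The deposited data are raw whole-number counts for each gene and library. The submitters' processing notes name FastQC, fastp, STAR, HTSeq and DESeq2, besides R 4.3.3 and the GRCh38 build, without saying what each was used for. Neither the counting mode nor the strand setting is given, so reads of overlapping genes may not be told apart. Library totals ran between 18945176 and 21711313 counts.

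GENCODE 29 gave positions, and 61803 of 61852 genes had a symbol. The main fit used edgeR 4.0.16 (R 4.3.3) with TMM scaling, a robust quasi-likelihood F-test, no block, and Benjamini-Hochberg adjustment over the 5038 genes averaging 500 counts or more. That minimum limits the weight of a 0, 1, 2, 10 or 100 that each deposited count appears to hold on top of the reads. A negative binomial model that includes this addition described genes below the minimum. Its dispersion of 0.00142 came from genes averaging 2000 counts or more, so its calls and intervals at low counts are nominal. Promoter windows are RefSeq's, on GRCh38.p14. Scripts were tested on simulated data. The replicate numbers were checked for pairing. Same-numbered libraries correlated by 0.0998, -0.0124 and -0.0801 in their deviations from the group means, so the numbers were not treated as pairs.

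The 57 genes, their classes and all lists were chosen with earlier results of these data known. Given in full are, in each class, up to 4 called genes with the largest absolute log2 fold change, plus ACTB, ACTG1 and MELK. The wider list is named by its 4 largest called changes in each direction, plus the formin FHOD1, which lies outside that rule. 1 list of cell type markers is not reported here. PFN1 and EZR were added after their values were seen. The alternatives were other scalings, other minimum means, filterByExpr, no filter, DESeq2 1.42.0, the model, removal of the trend with GC content and length, the replicate block, and each library left out.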

Additional observations from a re-analysis of the deposited data

How the results depend on the processing

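Of the 43 tested genes, 32 kept their direction and their side of the threshold in every alternative that tested them, and 11 did not. Genes called ran between 34 and 43 (with each library left out, 37 to 41), and those at 1.5-fold or more between 13 and 19 (14 to 17). The counts of 34 and 43 came with minimum means of 1000 and 200, which change how many genes were tested. The 34 were of 38 tested, beside 2658 called of 3281 over all genes. The 43 were of 46 tested, beside 5016 called of 7344 over all genes. The 19 at 1.5-fold or more came with filterByExpr and with no filter, where all 57 members were tested. No count over all genes at 1.5-fold was made in the alternatives. With library-size scaling, 9 genes were higher and 6 lower at 1.5-fold or more, and CAPZB was called higher (0.094). With GC content and length removed, 4 directions turned: ACTR2 stood at -0.215 (-0.216 with the replicate block as well), CORO1B at 0.164, ACTN1, no longer called, at 0.036, and CAPZB, called in neither fit, at -0.012. Fitted with the replicate block alone, all genes called were 3923, against 3876 without it, and no call among the 43 genes changed. Not every library was closest to its own number. All genes called ran between 2658 and 5016 (3677 to 3817 with a library left out), genes of the wider list between 27 and 39 (31 to 33), and pairs without overlap were 11 or 12 with a library left out. Each of these counts stayed within 1.5 times its main value. The model gives group estimates only, so no pair overlap was counted for it. Without strand information and with 1 hairpin, reads of overlapping genes and effects of the hairpin other than on MELK cannot be told apart from the changes given here.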
